A study of Mus musculus with 21 samples.

Results

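The 4 mouse Fc gamma receptors, the signalling chain they share and the microglial Fc receptor-like gene Fcrls were followed in sorted brain myeloid cells after traumatic brain injury. These 6 genes (Fcgr1, Fcgr2b, Fcgr3, Fcgr4, Fcer1g and Fcrls) were chosen by symbol, through the GENCODE M21 annotation, from the 45706 gene identifiers of the expression table, and all 6 passed the filter on low counts. Injury was controlled cortical impact (CCI), in which a piston strikes the exposed cortex, and sham mice received the surgery without the impact. The groups were microglia (Mg) of sham mice, Mg of WT and of Fgg γ390–396A mice at 1 day and at 7 days after CCI, and infiltrating myeloid cells (Mp, labelled macrophages) of both genotypes at 1 day, with 3 libraries in each of 7 groups and 2 pooled brains in each library. All mice were adult males on the C57BL/6 background. The Fgg γ390–396A allele is a germline knock-in whose fibrinogen still clots but lacks the γ-chain motif bound by the CD11b/CD18 integrin. The sham mice carried the WT allele, and uninjured mutant microglia were not analysed here. Cells were sorted from tissue around the lesion as CD45low CD11b+ (Mg) or CD45high CD11b+ (Mp), after the Fc receptors on their surface had been blocked to prevent antibodies from binding to them.

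Fc gamma receptors bind the constant part of IgG and let myeloid cells respond to antibody-coated targets. Fcgr1 encodes the high-affinity receptor, and Fcgr3 and Fcgr4 encode activating receptors of lower affinity. All of these need the common gamma chain, encoded by Fcer1g, to reach the cell surface and to signal through its ITAM motif to the kinase Syk. Fcgr2b encodes the inhibitory receptor, whose ITIM motif recruits the phosphatase SHIP-1 (Inpp5d). Fcrls is a scavenger receptor-like member of the Fc receptor-like family that is used as a marker of resident microglia.

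The genes lie in a pair of places in the genome (GRCm38). On chromosome 1, Fcgr2b (chr1:170958617-170976547, minus strand), Fcgr4 (chr1:171018920-171029761, plus strand), Fcgr3 (chr1:171051174-171064935, minus strand) and Fcer1g (chr1:171229572-171234365, minus strand) stand together. On chromosome 3, Fcrls (chr3:87250758-87263738, minus strand) is 4.25 Mb and Fcgr1 (chr3:96282909-96293969, minus strand) is 13.3 Mb from the targeted gene Fgg (chr3:83007724-83015049, plus strand). Fcgr2b and Fcgr3 are near copies over part of their length, so that reads from this part cannot be given to one gene by sequence alone. The longest stretch shared by their longest GENCODE coding sequences was 129 bases and is shown because it is longer than one sequencing read of 100 bases. It ran from exon 3, in lower case (chr1:170967980-170968081 in Fcgr2b and chr1:171057691-171057792 in Fcgr3), into exon 4, in capitals (chr1:170966674-170966700 and chr1:171054167-171054193), and reads 5′ to 3′ on the minus strand as follows.
Fcgr2b and Fcgr3: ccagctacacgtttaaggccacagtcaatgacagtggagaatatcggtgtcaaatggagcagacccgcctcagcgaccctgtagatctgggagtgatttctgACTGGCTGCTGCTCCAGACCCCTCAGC

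Of the distinct 31-base windows of the protein-coding Fcgr3 transcripts, 14.3% were also found in Fcgr2b transcripts, and 6.42% of the Fcgr2b windows were found in Fcgr3, of 12.6% found in any other gene. With windows of 100 bases, 2.70% of the Fcgr3 windows were shared with Fcgr2b. The split of reads between these receptors was thus partly estimated by salmon, and values for their sum are given below. No window of Fcgr1, Fcer1g or Fcrls, at either length, was found in another gene, and Fcgr4 shared 1.39% of its 31-base windows and none of its 100-base windows.

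The libraries held between 18896957 and 51875767 counts. A level is given as CPM (counts relative to the total count of the library, after TMM scaling), and because gene length was already divided out by the authors, levels can be compared between genes. The 6 genes had between 127 and 109445 counts in every library, where 3 counts correspond to at most 0.158 CPM, so depth did not limit their detection. Fgg itself had 0 counts in all 12 WT and sham libraries and between 0 and 14 in the 9 mutant libraries, which is too few to check the genotype. The summed level of 10 microglial marker genes was between 3352 and 13034 CPM in the Mg libraries and between 530 and 1308 CPM in the Mp libraries. The summed level of 10 monocyte markers was between 18.9 and 243 CPM in Mg and between 3725 and 4965 CPM in Mp, and that of 10 neutrophil markers was between 106 and 868 CPM in Mg and between 2798 and 13271 CPM in Mp. The Mp fraction therefore carried neutrophil as well as monocyte transcripts. Other cells known to carry Fc receptors were represented by the summed markers of border macrophages (149 to 436 CPM in Mg and 1269 to 2251 CPM in Mp), B cells (34.1 to 387 CPM over all libraries), NK cells (at most 1.54 CPM in Mg and 19.8 CPM in Mp) and mast cells and basophils (at most 10.96 CPM in Mg and 89.4 CPM in Mp). Of the border macrophage markers, Pf4 alone made 1401 ± 451 CPM of the sum in WT Mp, while the means of Cd163 and Lyve1 were 1.42 and 3.43 CPM there and 1.48 and 4.83 CPM in WT Mg at 1 day, and of the 8 markers 3 were called higher and 1 lower in WT Mp than in WT Mg.

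The order of levels was the same in nearly all libraries for the receptors and Fcer1g, but not for Fcrls. Fcer1g was the highest of the 6 genes in all 21 libraries, with levels from 821 to 2701 CPM. Among the receptors, Fcgr3 (251 to 655 CPM) was above Fcgr2b (93.3 to 262 CPM), and Fcgr2b was above Fcgr1 (63.0 to 173 CPM), in all 21 libraries. Fcgr4 was below Fcgr1 in 19 libraries and spanned the widest range of the receptors, from 4.05 to 122 CPM, a ratio of 30.1 between the highest and the lowest library. Fcrls was above Fcgr3 in 9 libraries, below Fcgr2b in 6, below Fcgr1 in 4 and below Fcgr4 in 2. It spanned a ratio of 36.6, from 33.5 to 1226 CPM, whereas the other 4 genes spanned ratios between 2.61 and 3.29. In the plot of levels by library, Fcgr4 and Fcrls are accordingly the panels in which groups stand farthest apart.

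**Figure D1:**
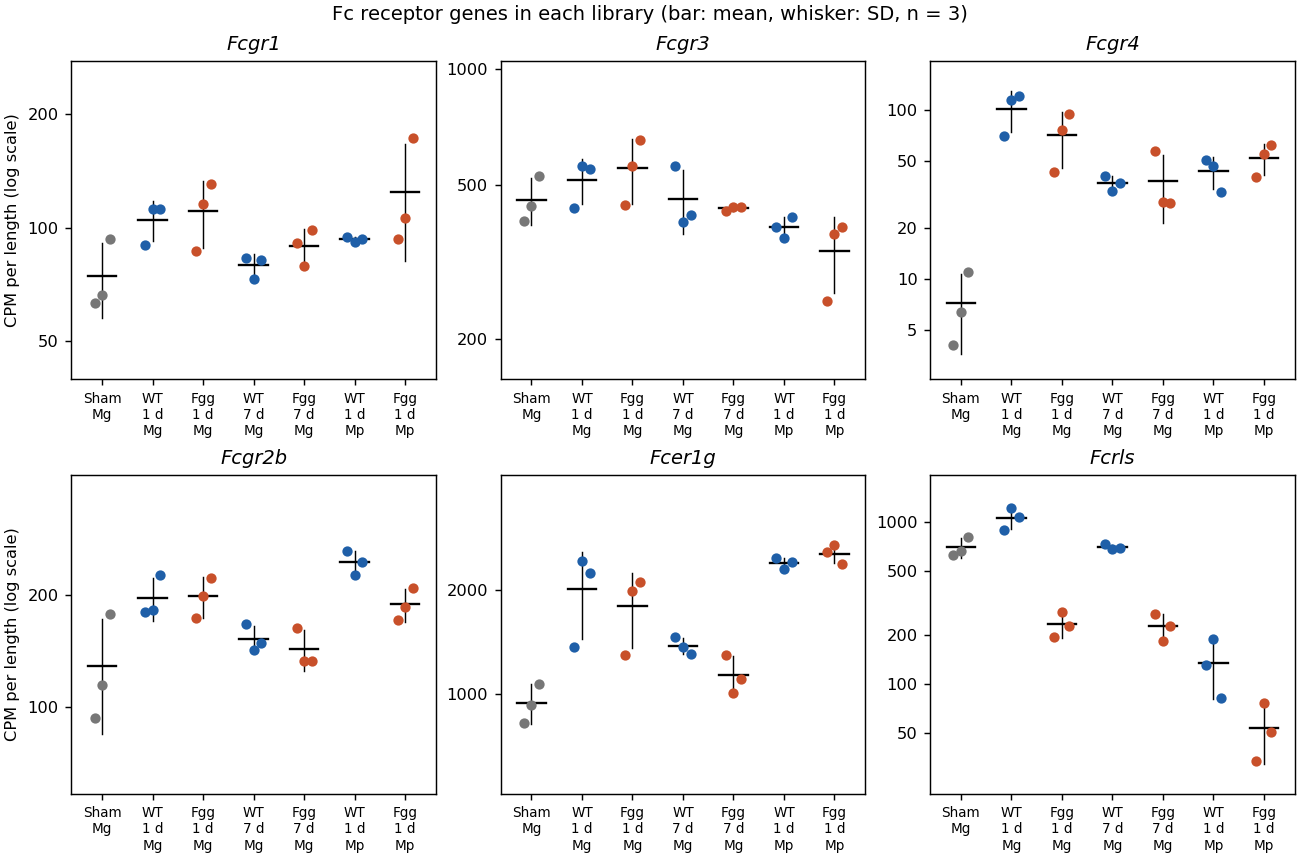
CPM of each gene (vertical axes, log scale, a separate range in each panel) in the 3 libraries of each group, with the group mean as a bar and the SD as a whisker. Grey points are sham, blue points WT and orange points Fgg γ390–396A mice. The sham libraries have the lowest Fcgr4 levels, at most 11.04 CPM, and Fcrls is lower in every mutant library than in any WT library of the same cells and day.

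The first question was how injury alone changed the receptors in WT microglia. Fcgr4 rose most. Its level was 4.05, 6.38 and 11.04 CPM in the sham libraries and 69.8, 114 and 122 CPM in WT Mg at 1 day. All 3 injured libraries were thus above all 3 sham libraries, and the mean rose from 7.15 ± 3.56 to 102 ± 28.1 CPM (SD, n = 3), or 14.2-fold (log2 fold change 3.83, SE 0.39, edgeR quasi-likelihood test, adjusted p = 1.61e-06). In bulk samples such as these, more cells of a kind and more RNA per cell cannot be told apart. Fcer1g, the partner chain, was at 822, 931 and 1071 CPM in sham Mg and at 1366, 2437 and 2244 CPM in WT Mg at 1 day. Its mean rose 2.14-fold (log2 fold change 1.10, SE 0.21, adjusted p = 0.000915), with replicate 1 of the injured group well below the other 2. Fcgr4 and Fcer1g were the 2 of 6 genes called, which required an adjusted p under 0.05 and a log2 fold change beyond 1 in either direction, where 12.3% of the 23815 genes tested were called. The Fcer1g value stood close to the fold bar: without WT replicate 2 the log2 fold change was 0.97 (adjusted p = 0.00594), and with DESeq2 it was 0.996 (adjusted p = 2.46e-06), both of which fell short of it.

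The inhibitory receptor moved less. Fcgr2b was at 93.3, 114 and 177 CPM in sham Mg and at 179, 182 and 225 CPM in WT Mg at 1 day, so that the groups were next to each other without overlap, and its 1.52-fold difference had an adjusted p of 0.0364 but did not reach the fold bar. Fcgr1 had a mean of 74.2 ± 16.7 CPM in sham Mg and 105 ± 12.8 CPM in WT Mg at 1 day (adjusted p = 0.13). For Fcgr3, the receptor with the highest level, the means were 458 ± 64.2 and 516 ± 69.5 CPM (adjusted p = 0.608), and the 95% interval of its log2 fold change, -0.23 to 0.57, held no change of 2-fold. Fcrls was at 626, 664 and 816 CPM in sham Mg and at 901, 1226 and 1074 CPM in WT Mg at 1 day. The WT libraries were all higher, but the 1.52-fold difference was not called (adjusted p = 0.162).

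The same comparison in Fgg γ390–396A microglia, which was made against the same sham libraries, gave 2 of 6 genes called, against 6.64% of all genes. Fcgr4 was at 43.1, 76.6 and 94.5 CPM in mutant Mg at 1 day, again above all sham libraries, and was 9.94-fold higher (log2 fold change 3.31, SE 0.38, adjusted p = 1.34e-05). Fcrls was at 197, 281 and 230 CPM, below every sham library, and was 2.98-fold lower (log2 fold change -1.58, SE 0.28, adjusted p = 0.000818). Fcer1g was at 1298, 1988 and 2121 CPM, a 1.92-fold difference whose adjusted p of 0.00561 passed but whose size was under the fold bar. Without mutant replicate 1 or without sham replicate 3 its log2 fold change was 1.13 or 1.04 (adjusted p = 0.000852 and 0.00879), and it was called. Fcgr2b (173, 198 and 223 CPM) differed 1.54-fold with an adjusted p of 0.0463 and was likewise under the fold bar. As in WT mice, replicate 1 had the lowest levels of Fcgr4 and Fcer1g in its group.

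By 7 days Fcgr4 had come down in WT microglia but not to the sham level. Its level was 40.9, 33.2 and 37.0 CPM in WT Mg and 56.9, 28.7 and 28.04 CPM in mutant Mg at 7 days, all above the sham libraries. It was 5.16-fold higher than sham in WT (log2 fold change 2.37, SE 0.37, adjusted p = 0.000999), where it was the 1 gene of the 6 called against 2.02% of all genes. In the mutant it was 5.28-fold higher (log2 fold change 2.40, SE 0.37, adjusted p = 0.00222), and with Fcrls it made 2 of 6 genes called against 0.663% of all genes. This last Fcgr4 call was lost in a fit of the 2 compared groups alone (adjusted p = 0.0628). Between 1 and 7 days Fcgr4 fell 2.75-fold in WT Mg (log2 fold change -1.46, SE 0.35, adjusted p = 0.01), and it was the only one of the 6 genes called there, against 7.06% of all genes. Without WT 7-day replicate 2 the adjusted p was 0.0507. In mutant Mg none of the 6 genes was called between 1 and 7 days, where 3.54% of all genes were, and the 1.88-fold lower Fcgr4 level at 7 days had an adjusted p of 0.167.

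**Figure D2:**
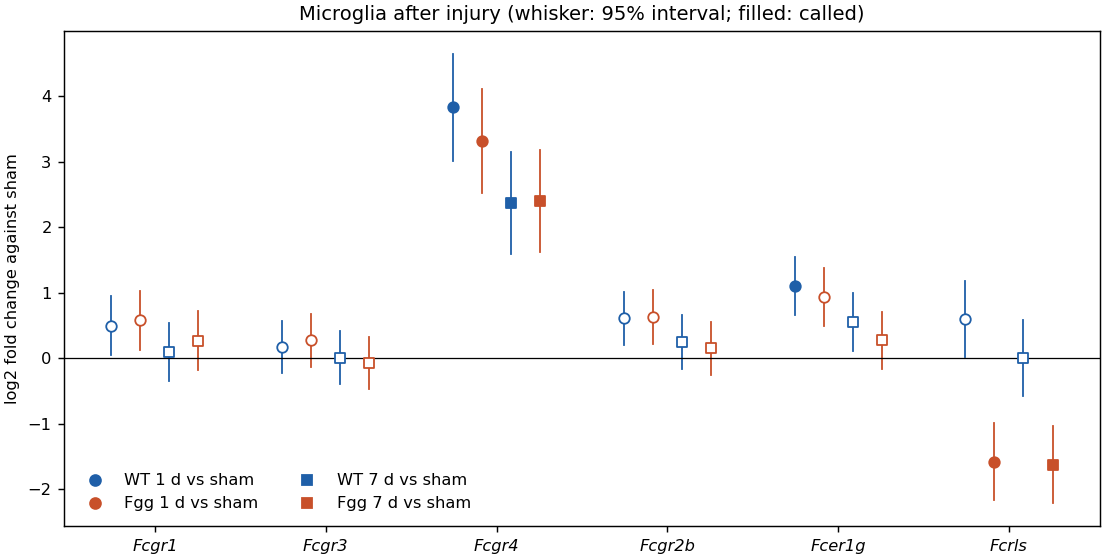
Log2 fold change of each gene against sham microglia (vertical axis) with its 95% interval, for WT (blue) and Fgg γ390–396A (orange) microglia at 1 day (circles) and 7 days (squares). Filled symbols passed the fold and adjusted p bars, and the 4 comparisons share the sham libraries. Fcgr4 is filled in all 4 comparisons, between 2.37 and 3.83, and Fcrls is filled below 0 only in the mutant, at -1.58 and -1.62.

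Apart from Fcgr4, and Fcrls in the mutant, no gene of the 6 was called against sham at 7 days. Fcer1g was at 1459, 1369 and 1307 CPM in WT Mg, above all sham libraries, but its 1.47-fold difference was not called (adjusted p = 0.253). In mutant Mg it was at 1300, 1005 and 1107 CPM (adjusted p = 0.816 against sham). The mean of Fcgr1 was 79.3 ± 5.59 CPM in WT and 89.4 ± 9.59 CPM in mutant Mg, that of Fcgr2b 152 ± 12.8 and 143 ± 17.7 CPM, and that of Fcgr3 460 ± 86.9 and 435 ± 6.23 CPM, and all 3 overlapped the sham libraries. Fcrls in WT Mg was at 730, 683 and 697 CPM, inside the sham range.

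The summed level of the monocyte markers was higher in WT Mg at 1 day than in sham Mg. It was 18.9 to 63.2 CPM in sham Mg, and 116 to 243 CPM in WT Mg and 39.7 to 142 CPM in mutant Mg at 1 day. At 7 days it was 46.0 to 113 CPM in WT Mg and 41.0 to 65.9 CPM in mutant Mg. In WT Mg at 1 day 3 of the 10 markers were called higher and 0 lower against sham, with 12.3% of all genes called. The means of Fn1 (2.09 to 97.8 CPM) and S100a4 (11.9 to 51.4 CPM) rose most in CPM, while those of Ly6c2 (2.925 to 1.99 CPM) and Chil3 (6.20 to 4.98 CPM) fell. Fcgr4 itself was lower in the infiltrating cells than in microglia of WT mice at 1 day: it was at 50.4, 46.7 and 32.6 CPM in WT Mp at 1 day, below all 3 WT Mg libraries. The summed neutrophil markers, 160 to 804 CPM in sham Mg, overlapped the 174 to 843 CPM of WT Mg at 1 day, but this sum mixes opposite changes. Of the 10 markers, 0 were called higher and 1, Csf3r, lower (median log2 fold change -0.935), against the same 12.3% of all genes. The mean of Csf3r fell from 168 to 58.8 CPM, while those of S100a8 (94.6 to 212 CPM) and S100a9 (102 to 240 CPM) rose without a call. The microglial markers fell at the same time, from between 11321 and 13034 CPM in sham Mg to between 3352 and 4951 CPM in WT Mg and between 5724 and 7177 CPM in mutant Mg at 1 day. The part of these shifts in the receptor changes was not tested.

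The sequence before the start of Fcgr4, the receptor gene with the largest change, is shown beside that of Fcgr1, an activating receptor gene called in none of the comparisons. They are the RefSeq 5′ sequences on GRCm38.p6, kept to the bases that also lie outside the GENCODE gene, at chr1:171018676-171018919 (plus strand, 244 bases) and chr3:96293970-96294219 (minus strand, 250 bases). Capitals mark the PU.1 core GAGGAA (or TTCCTC on the other strand), bound by the myeloid factor PU.1 and the interferon gamma-activated site TTCNNNGAA. Matches to both motifs were searched on both strands and did not overlap.
Fcgr4: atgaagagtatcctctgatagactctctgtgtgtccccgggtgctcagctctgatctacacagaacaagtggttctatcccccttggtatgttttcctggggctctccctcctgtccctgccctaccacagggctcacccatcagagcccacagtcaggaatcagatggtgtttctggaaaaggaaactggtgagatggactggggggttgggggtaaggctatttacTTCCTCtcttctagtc
Fcgr1: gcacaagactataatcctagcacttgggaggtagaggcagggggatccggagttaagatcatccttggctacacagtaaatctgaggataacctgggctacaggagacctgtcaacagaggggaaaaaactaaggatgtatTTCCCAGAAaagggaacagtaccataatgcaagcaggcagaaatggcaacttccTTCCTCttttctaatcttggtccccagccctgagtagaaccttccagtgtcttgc

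In the 250 bases before the RefSeq start, the PU.1 core was present 22 bases before the start of Fcgr4, 55 bases before that of Fcgr1 and 6 or 15 bases before the annotated starts of Fcgr3. Of 32851 RefSeq promoters of this length, 23.3% held it. The interferon gamma-activated site was found before Fcgr1, 109 bases from the start, and before none of the other 5 genes, and 7.02% of all promoters held it. No PU.1 core was found before Fcgr2b or Fcer1g. For Fcgr2b and for each annotated start of Fcgr3, all 250 bases searched lay inside the GENCODE gene. The matches and absences given for these genes are therefore not outside the gene. The match before Fcrls, 144 bases from the RefSeq start, was inside the longer GENCODE transcript and is not shown. A match is a run of letters and no evidence of binding.

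The second question was whether removing the CD11b/CD18 motif of fibrinogen changed these genes. Fcrls differed between the genotypes in all 3 cell populations, and the Fc gamma receptors and Fcer1g were called in none. In Mg at 1 day Fcrls was at 197, 281 and 230 CPM in the mutant against 901, 1226 and 1074 CPM in WT, with no overlap and a mean 4.53-fold lower (log2 fold change -2.18, SE 0.29, adjusted p = 0.00143). It was the only one of the 6 genes called at the bar used between genotypes (an adjusted p under 0.1 and a log2 fold change beyond 1 in either direction), which 0.0546% of all genes passed. At 7 days it was at 271, 185 and 229 CPM in mutant Mg against 730, 683 and 697 CPM in WT Mg, 3.08-fold lower (log2 fold change -1.62, SE 0.28, adjusted p = 0.0401), with 0.0378% of all genes called. In Mp at 1 day, where its level was lower in both genotypes, it was at 33.5, 75.8 and 50.5 CPM in the mutant against 131, 188 and 81.9 CPM in WT. The groups again did not overlap, the mutant mean was 2.51-fold lower (log2 fold change -1.33, SE 0.28, adjusted p = 0.0614), and 0.453% of all genes were called.

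Over the 3 populations the mean log2 difference of Fcrls was -1.71 (SE 0.16, adjusted p = 7.06e-06), a 3.27-fold lower level, and its unadjusted p ranked 8 among the 23815 genes, of which 0.143% were called. The difference was not shown to depend on day or cell population. The genotype difference at 7 days minus that at 1 day was 0.55 (95% interval -0.26 to 1.37, adjusted p = 1), a comparison in which edgeR called 0 genes (0%), with 653 at an unadjusted p under 0.05, and DESeq2 called 33. The genotype difference in Mp minus that in Mg was 0.85 (95% interval 0.03 to 1.67, adjusted p = 0.583), where 0.0462% of all genes and none of the 6 were called. The separate calls at 7 days and in Mp were not stable to single libraries. At 7 days, leaving out mutant replicate 2 or 3 or any 1 of the 3 WT replicates kept the log2 fold change between -1.49 and -1.65 but put the adjusted p between 0.139 and 0.478. In Mp the call was lost without mutant replicate 1 (log2 fold change -1.03, adjusted p = 0.113), WT replicate 1 (-1.34, 0.11) or WT replicate 2 (-0.94, 0.208), and in a fit of these 2 groups alone (-1.28, adjusted p = 0.715).

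Fcrls lies close to the targeted gene, and so the surroundings of Fgg were examined. Of the 232 genes tested within 10 Mb of Fgg, 2 were called between genotypes in Mg at 1 day, 2 in Mg at 7 days and 3 in Mp. Fcrls and the ribosomal protein gene Rps3a1, 3.13 Mb from Fgg, were called in all 3 populations, both lower in the mutant, and Arhgef2, which encodes a RhoA activator, was called in Mp alone, where it was higher. The log2 fold changes of Rps3a1 were -2.32, -1.92 and -1.98. Over the whole genome 8 genes were called in all 3 populations, and the 6 others, chosen for mention after their values were seen, were pseudogenes on other chromosomes and higher in the mutant. They include Rps3a3 (log2 fold changes 6.14, 5.99 and 6.69) and Rps3a2 (3.49, 3.28 and 3.66), processed pseudogenes named for the same ribosomal protein, so the Rps3a1 value is uncertain, since reads of such near copies may be split between them. That was not tested, and Fcrls, as given above, shared no window with another gene. On the rest of chromosome 3, 3, 1 and 11 of 1230 genes were called. Fcrl1, a gene of the same family known from B cells, at 4.38 Mb, had a low level of 1.20 ± 0.594 CPM in mutant and 5.43 ± 1.77 CPM in WT Mg at 1 day, and 1.44 ± 1.84 against 12.99 ± 3.23 CPM at 7 days, and neither difference was called (adjusted p = 0.752 and 0.255). Fcgr1, the other gene of the 6 on this chromosome, was not called in any genotype comparison. Sequence linked to the knock-in allele was not analysed here, so the effect of the mutated motif and that of a linked part of chromosome 3 cannot be told apart for Fcrls. Whether Fcrls differed before injury was not measured here.

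**Figure D3:**
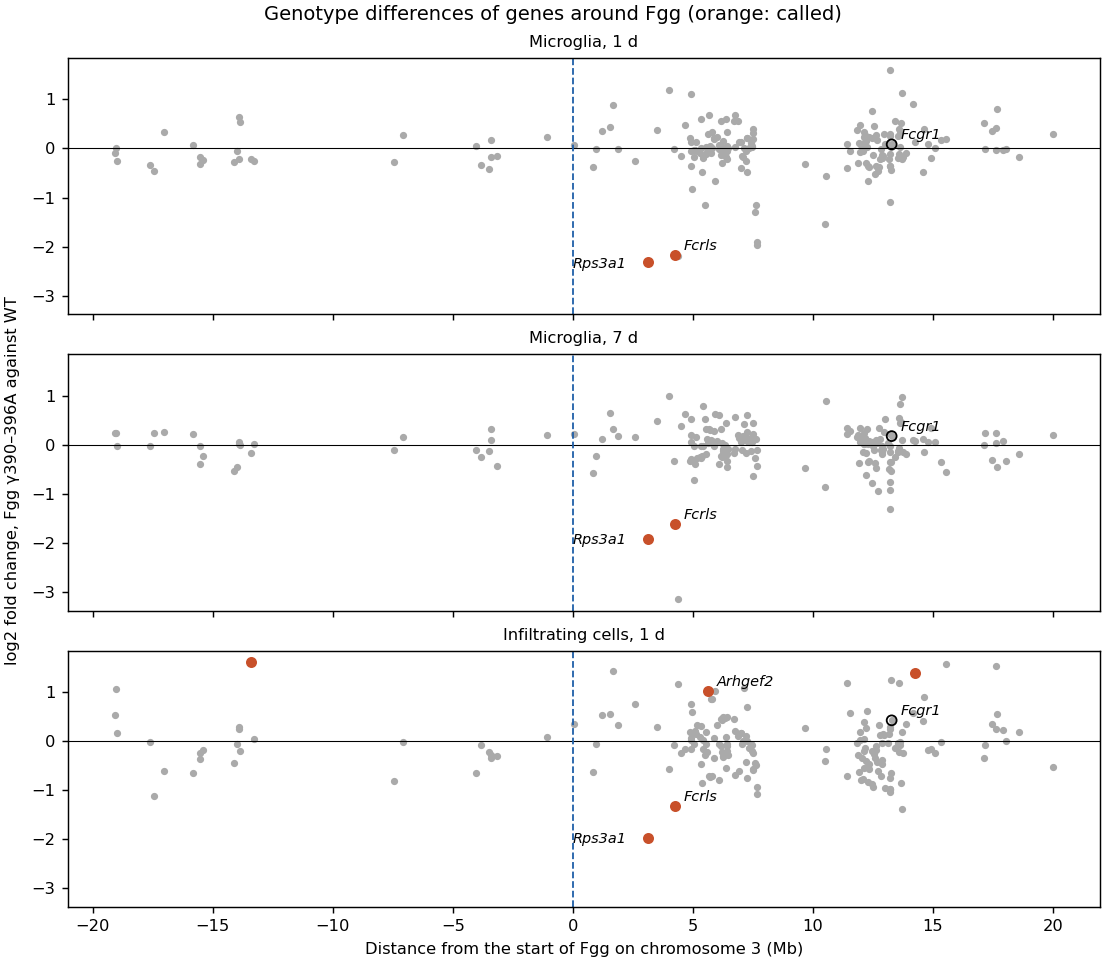
Log2 fold change of Fgg γ390–396A against WT (vertical axis) for the 203 tested genes with a mean log2 CPM above 1 within 20 Mb of Fgg, by distance from the start of Fgg in Mb (horizontal axis, dashed line at 0). Orange points were called in that population and named if within 10 Mb, and Fcgr1 is circled. Fcrls and Rps3a1 stand at or below -1.33 in all 3 panels, and Fcgr1 is at 0.08, 0.17 and 0.42.

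The low Fcrls level of the mutant was not seen in the summed microglial markers. The summed level of the 10 markers was higher in mutant Mg (5724 to 7177 CPM) than in WT Mg (3352 to 4951 CPM) at 1 day, and none of the 10 was called between genotypes in any population. P2ry12, the purinergic receptor of resting microglia, had a mean of 1028 ± 523 CPM in mutant and 395 ± 247 CPM in WT Mg at 1 day, against 3999 ± 39.0 CPM in sham Mg. The P2ry12 mean was also higher in mutant than in WT Mg at 7 days (2258 ± 161 against 1634 ± 53.5 CPM). In Mp it was 87.8 ± 17.3 CPM in the mutant and 48.4 ± 29.4 CPM in WT. P2ry12 and Olfml3 lie on chromosome 3, like Fgg and Fcrls. Olfml3 was the marker whose levels were most like those of Fcrls. It had means of 237 ± 52.05 CPM in mutant and 296 ± 61.1 CPM in WT Mg at 1 day, of 200 ± 31.98 and 285 ± 15.4 CPM at 7 days, and of 16.5 ± 3.07 and 31.6 ± 10.9 CPM in Mp. Its mutant mean was thus lower in each population, without a call, and the part of linked sequence in this was not tested. In WT mice, P2ry12 fell by 3.34 and Tmem119 by 1.80 on the log2 scale from sham to WT Mg at 1 day (adjusted p = 3.31e-05 and 0.000117), where Fcrls was not called and each of its libraries was above the sham libraries. In Mp the summed markers of the mutant (829 to 1308 CPM) overlapped those of WT (530 to 900 CPM).

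**Figure D4:**
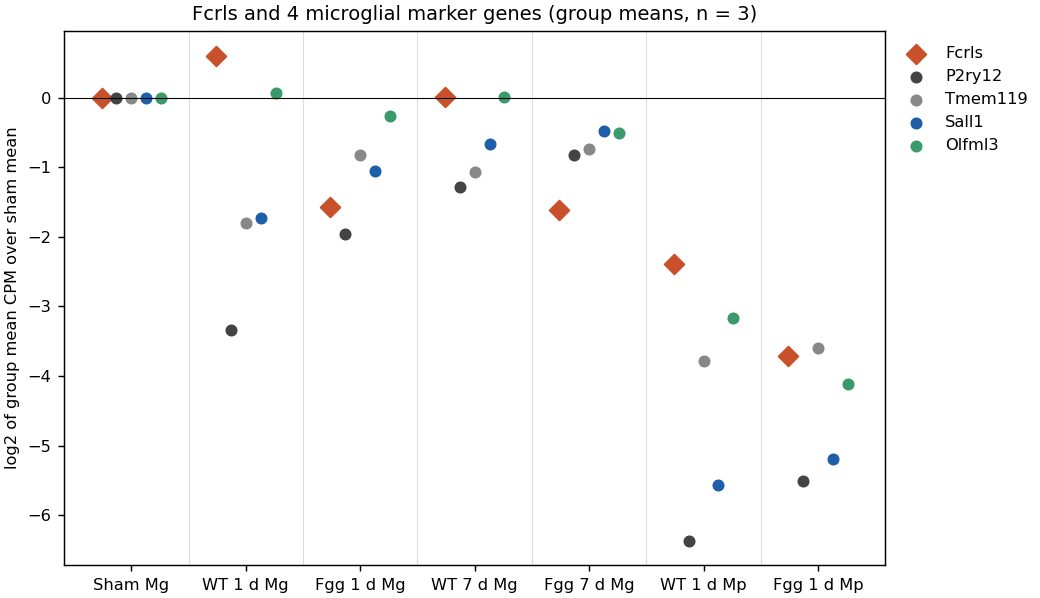
Log2 ratio of each group's mean CPM to the sham mean (vertical axis) for Fcrls (orange diamonds) and 4 microglial markers (circles), in 7 groups of 3 libraries. Fcrls is above 0 in WT microglia at 1 day, where P2ry12, Tmem119 and Sall1 are below 0, and it is the lowest of the 5 in mutant microglia at 7 days.

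For the remaining genes the intervals show how large a genotype difference the data allow. Averaged over the 3 populations, the log2 difference was 0.22 (95% interval -0.03 to 0.48) for Fcgr1, -0.15 (-0.38 to 0.08) for Fcgr2b, -0.06 (-0.29 to 0.17) for Fcgr3, -0.07 (-0.49 to 0.35) for Fcgr4 and -0.12 (-0.37 to 0.14) for Fcer1g, and no adjusted p was below 0.628. For these 5 genes a mean genotype effect of 1 on the log2 scale thus lay outside the interval. In Mg at 1 day the Fcgr4 difference was -0.51 (95% interval -1.24 to 0.21, adjusted p = 0.89), with libraries that overlapped. Libraries of the same replicate number deviated together in this comparison, and Fcgr4 was lower in the mutant in 3 of 3 such pairs, but in the fit with a replicate block its difference was -0.52 (SE 0.35, adjusted p = 1). The sum of Fcgr2b and Fcgr3 differed by -0.09 on the log2 scale (exact permutation test within populations, two-sided, p = 0.342). Because transcript length is divided out, this sum can still depend in part on how reads were split between these 2 genes. Of single values, Fcgr2b in Mp (171, 185 and 209 CPM in the mutant against 262, 227 and 246 CPM in WT) and Fcer1g in Mg at 7 days did not overlap between genotypes, but neither was called (adjusted p = 0.455 and 1). How many of all genes stood apart in this way was not counted, so no result is drawn from these cases.

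The third comparison set infiltrating cells against microglia at 1 day. In WT mice Fcrls and Fcgr4 were the 2 of 6 genes called, both lower in Mp, against 11.9% of all genes. Fcrls was 7.97-fold lower in Mp than in Mg (log2 fold change -2.99, SE 0.30, adjusted p = 1.05e-06), and Fcgr4 was 2.35-fold lower (log2 fold change -1.24, SE 0.35, adjusted p = 0.0203). The Fcgr4 call was lost, with adjusted p between 0.055 and 0.0961, without Mg replicate 2 or 3 or without Mp replicate 2 or 3. In mutant mice only Fcrls was called, 4.42-fold lower in Mp (log2 fold change -2.14, SE 0.29, adjusted p = 2.37e-05), against 16.7% of all genes. In that comparison the median log2 fold change of all genes was -0.13, and Fcgr3 was 0.71 lower on the log2 scale in Mp (adjusted p = 0.0117), below the fold bar, with levels of 251, 374 and 389 CPM in Mp against 445, 561 and 655 CPM in Mg. Fcer1g had a mean of 2403 ± 82.5 CPM in WT Mp and 2016 ± 570 CPM in WT Mg, a difference that was not called (adjusted p = 0.457). The microglial markers moved with Fcrls, from between 3352 and 7177 CPM in Mg at 1 day to between 530 and 1308 CPM in Mp, and their part in the Fcrls level of Mp was not tested.

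The shares of the 4 receptors in their summed transcripts are given as descriptions, without a test. Fcgr3 made up 69.0% ± 3.35 of the 4 receptor transcripts in sham Mg and 56.2% ± 1.69 in WT Mg at 1 day (SD, n = 3), while Fcgr4 went from 1.03% ± 0.322 to 10.9% ± 1.69. At 7 days the share of Fcgr4 was 5.10% ± 0.295 in WT and 5.31% ± 2.07 in mutant Mg. The inhibitory Fcgr2b held between 18.9% and 21.4% of the transcripts in the 5 Mg groups, and 31.7% ± 1.01 in WT Mp and 27.2% ± 3.15 in mutant Mp. Expressed as the log2 ratio of the 3 activating receptors to Fcgr2b, which does not depend on scaling between libraries, the mean was 2.11 ± 0.254 in sham Mg, 1.88 ± 0.204 in WT Mg and 1.10 ± 0.0668 in WT Mp at 1 day. The 3 WT Mp values (1.03, 1.15 and 1.14) were below the 3 WT Mg values (1.73, 2.11 and 1.80), a difference of -0.78, and the 3 mutant Mp values (1.17, 1.53 and 1.58) were below the mutant Mg values (1.73, 1.93 and 1.98), a difference of -0.45. In both cases the exact two-sided permutation p was 0.1, the smallest that 3 against 3 allow (adjusted p = 0.367 over 11 comparisons). Between genotypes the ratio differed by 0.13, higher in the mutant (exact permutation test within populations, two-sided, p = 0.118), and without WT 1-day Mg replicate 2 the difference was 0.17 (p = 0.0302).

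**Figure D5:**
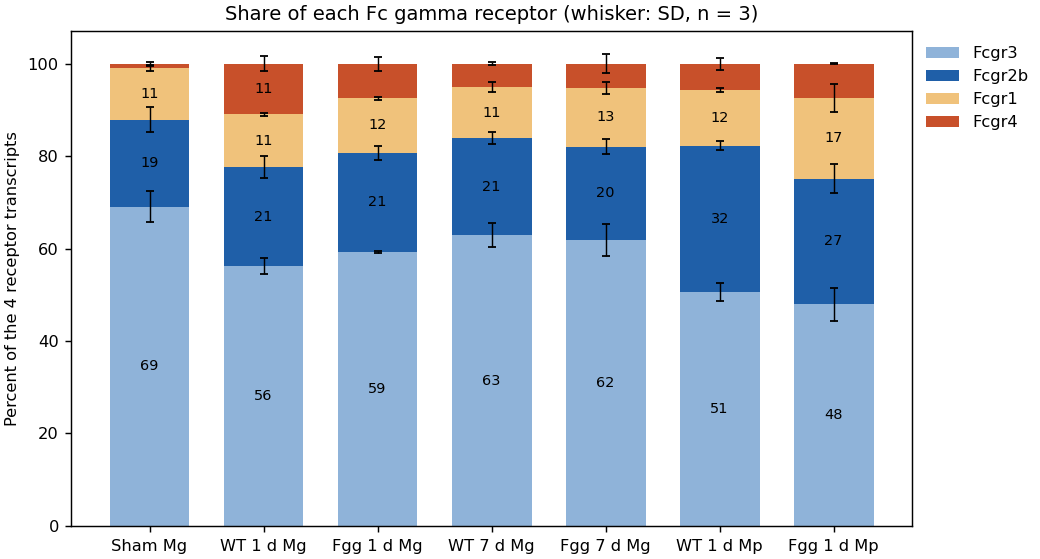
Share of each receptor in the summed CPM of the 4 Fc gamma receptors (vertical axis, percent), as the mean of 3 libraries per group with the SD as a whisker at the top of each segment. Fcgr3 is the largest share in all 7 groups, Fcgr4 is 1.03% in sham microglia and 10.9% in WT microglia at 1 day, and Fcgr2b reaches 31.7% in WT infiltrating cells.

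The level of Fcer1g relative to the receptors it serves was higher after injury. The log2 ratio of Fcer1g to the 3 activating receptors was 0.81 ± 0.0478 in sham Mg, 1.45 ± 0.224 in WT Mg at 1 day, 1.28 ± 0.112 in mutant Mg at 1 day and 2.19 ± 0.0242 in WT Mp (SD, n = 3). At 7 days it was 1.27 ± 0.168 in WT and 1.01 ± 0.152 in mutant Mg, where the lowest library, at 0.88, was just above the highest sham library, at 0.86. This ratio was not tested.

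The other genes of the pathway were taken from lists chosen by function. Of 13 other Fc receptors and Fc receptor-like genes, 11 were tested, and 2 were called lower and none higher in WT Mg at 1 day against sham (median log2 fold change -1.09, against 0 over all genes, of which 12.3% were called). These were Fcrl1, which went from 23.2 ± 1.81 to 5.43 ± 1.77 CPM, and Trim21, which encodes the cytosolic antibody receptor and went from 8.91 ± 0.503 to 4.18 ± 0.785 CPM (adjusted p = 0.0262 and 0.0311). The summed B cell markers were between 197 and 266 CPM in sham Mg and between 66.5 and 144 CPM in WT Mg at 1 day, and their part in the Fcrl1 difference was not tested. The neonatal Fc receptor gene Fcgrt, at 20.04 ± 1.00 CPM in WT Mg at 1 day, was lower in WT Mp at 6.84 ± 1.05 CPM (log2 fold change -1.55, adjusted p = 0.000268). Fcrlb, a little-studied gene of the family, was called higher in WT Mp (log2 fold change 5.21, adjusted p = 0.00173), with 4.77 ± 1.11 CPM against 0.125 ± 0.0778 CPM in WT Mg at 1 day, where it had at most 5 counts. None of these 11 genes was called between genotypes.

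Downstream of the receptors, 4 of 21 kinases and adaptors were called higher and 2 lower in WT Mg at 1 day (median log2 fold change 0.02), against 12.3% of all genes called in either direction. The Src family kinase gene Fgr rose from 1.02 ± 0.442 CPM in sham to 4.86 ± 2.91 CPM at 1 day and 14.4 ± 1.17 CPM at 7 days (log2 fold changes 2.23 and 3.80, adjusted p = 0.000426 and 2.33e-05), and Rac2, a GTPase of the phagocyte oxidase, rose by 1.02 on the log2 scale (adjusted p = 0.00107). Prkcd and Pik3cg, which encode a protein kinase C and a PI3-kinase catalytic subunit, fell by 1.37 and 1.05 on the log2 scale (adjusted p = 8.67e-05 and 0.00013). Syk was higher in WT Mp than in WT Mg (39.3 ± 11.1 against 12.6 ± 0.844 CPM, adjusted p = 1.54e-05). Of the 11 inhibitory pathway genes tested, 1 was higher and 2 were lower in WT Mg at 1 day (median -0.52), against the same 12.3%. The adaptor gene Dok2 went from 0.547 ± 0.103 to 9.90 ± 1.41 CPM (log2 fold change 4.18, adjusted p = 3.27e-07), while the inhibitory receptor genes Cd300a and Siglece fell by 1.90 and 1.49 on the log2 scale (adjusted p = 0.000123 and 0.000852). Between genotypes, none of the kinases and adaptors was called in any population, and of the inhibitory pathway genes only Siglece was, higher in mutant Mp (log2 fold change 1.37, adjusted p = 0.0541).

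Of 14 genes known to respond to interferon gamma, a macrophage-activating cytokine, 1 was called higher and 2 lower in WT Mg at 1 day against sham (median log2 fold change -0.60, with 12.3% of all genes called), and 4 were higher and none lower at 7 days (median 0.95, with 2.02% of all genes called). A relation of this list to the receptor changes was not tested. The chemokine gene Cxcl10 was higher at both days (log2 fold changes 4.72 and 5.08, adjusted p = 0.000147 and 0.000715). The transcription factor gene Irf1 was lower at 1 day (log2 fold change -1.19, adjusted p = 0.0269). None of the 14 was called between genotypes.

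Across the 21 libraries, which share groups and differ in depth and cell type, the genes whose log2 CPM was most like that of each member were sought among 8946 protein-coding genes. The closest to Fcgr4 was Cd72 (Pearson r = 0.966), which encodes a surface receptor with an ITIM motif, followed by Ccdc86 and Gpr65 (both 0.941). Fcer1g was closest to Cox6a1 (0.979), Capns1 (0.972) and Cfl1 (0.965), and Fcrls to Zkscan17 (0.882), to the microglial gene Olfml3 (0.874) and to Trove2 (0.842). The closest genes to Fcgr2b were Pdcd6ip, M6pr and Glrx (0.889 to 0.901), those to Fcgr3 were Runx1, Tspan3 and Tspan4 (0.867 to 0.878), and those to Fcgr1 were Eif3m, Ppfibp1 and Tcof1 (0.818 to 0.854). Among the 6 genes, Fcgr2b and Fcer1g were the most alike (0.832), and Fcrls and Fcer1g the least (-0.496).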

How the data were processed

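RNA was sequenced from 21 libraries of sorted cells in 7 groups. The authors mapped reads to GRCm38 with the nf-core RNA-seq pipeline, used salmon to assign them to genes, and deposited estimated counts per gene, in which transcript length is divided out and each library is scaled to its mapped reads, without normalisation between libraries. The submitters' processing notes name DESeq2 1.36.0 and R 4.2.0. Here the expected counts were rounded, 45143 of 45706 identifiers were matched to GENCODE M21 symbols, and genes with under 5 counts over all libraries were left out, which kept 23815. The edgeR 4.0.16 quasi-likelihood test with TMM scaling was fitted to all 21 libraries in R 4.3.3, with Benjamini-Hochberg adjustment over all genes tested. The scale factors ranged from 0.735 to 1.55. The bars were a log2 fold change beyond 1 in either direction with an adjusted p under 0.05, or under 0.1 between genotypes and, without the fold, for interactions. Alternatives were DESeq2 1.42.0, its size factors, other filters, a replicate block, smaller fits, other bars and leaving out single libraries. CPM are TMM-scaled.

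Each library pooled 2 brains, and p-values measure the spread between such pools. Intervals cover no other source of error. Replicate numbers were checked as pairs from the correlation of deviations from group means. Of the 33 same-numbered pairs in the comparisons, 10 were above 0.1. These include r = 0.123 and 0.147 between genotypes in Mg at 7 days and 0.166 and 0.14 in WT Mp against Mg. The mean over all same-numbered pairs was 0.0291. All 3 pairs were above 0.1 only in the genotype comparison of Mg at 1 day (r = 0.449, 0.216 and 0.137). The main fit was unpaired in every comparison, this one included. For this one, values of Fcgr4 and Fcrls from the fit with a replicate block are given as well. On simulated data for that comparison with 23200 genes, of which 200 were changed by 2 on the log2 scale, edgeR recovered 149 (74.5%) with 8 other genes called, and DESeq2 recovered 162 (81.0%) with 101 others. From each list of pathway genes, the text names, in the main comparisons, up to 2 called genes a direction, taken by smallest adjusted p. One gene that this rule names is not reported here. Genes within 10 Mb of Fgg called between genotypes, and for each of the 6 genes the 3 genes with the highest Pearson r, are named too. The genes and lists were chosen with earlier results of these data known.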

Additional observations from a re-analysis of the deposited data

How the results depend on the processing

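Between genotypes, Fcrls was called in Mg at 1 day and over the mean of the 3 populations in every setting and without every single library tried. In WT Mg at 1 day against sham, 1 gene of the 6, Fcgr4, was called with the DESeq2 test, with DESeq2 size factors and at a fold bar of 1.5, since Fcer1g fell short of the bar. On adjusted p alone, 4 genes were called in mutant Mg at 1 day against sham, with Fcgr2b and Fcer1g added, and 2 in mutant Mp against Mg, with Fcgr3 added. Without the fold bar more of all genes can be called too. Their share at that bar is not given here, so these counts show no excess. Fits of the compared groups alone called 1 gene (Fcrls) in mutant Mg at 7 days against sham and 0 between genotypes in Mp. Leaving out single libraries, the number called ranged from 1 to 2 in WT Mg at 1 day against sham and in WT Mp against Mg, and from 0 to 1 in WT Mg at 7 against 1 day and between genotypes in Mg at 7 days and in Mp. The genotype difference of the receptor ratio ranged from 0.105 to 0.174, and without WT 1-day Mg replicate 2 it was 0.170 (exact permutation p = 0.0302). Without any other single library the exact permutation p was between 0.0575 and 0.219. The mean genotype difference of Fcgr3 ranged from -0.11 to 0.01 and that of Fcgr4 from -0.21 to 0.02, with signs that turned to 0.0133 and 0.0127, and to 0.0178 and 0.000494. For values of single genes, 252 kept direction and call under the other settings, 5 lost the call and 4 gained it, and without a library 274 kept both, 14 lost the call, 2 gained it and 4, those just given, changed sign. The replicate block changed no call of the 6 genes: the Fcrls difference between genotypes in Mg at 1 day was -2.18 (adjusted p = 0.00163) with the block. It gave 66 in place of 108 genes called over all genes between genotypes in Mp. DESeq2 called 104, 80, 841 and 233 genes between genotypes in Mg at 1 day, Mg at 7 days, Mp and over their mean, in place of 13, 9, 108 and 34, and 820 and 347 in place of 481 and 158 in WT and mutant Mg at 7 days against sham. Because of the fold bar, a difference under 2-fold between genotypes could not be called.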
